A study of Mus musculus with 3 samples.

Results

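The genes described here encode RNA polymerase II (Pol II), the Mediator complex, TFIID and the other general transcription factors, the machinery that starts transcription of protein-coding genes. They were chosen by symbol alone, with no measured value: Polr2a to Polr2m, the Med genes, the Taf genes, Tbp, and the Gtf2a, Gtf2b, Gtf2e, Gtf2f and Gtf2h genes. This gave 80 of the 36609 genes on the array, read by 169 probes. The symbol rule also takes in 7 Taf genes whose proteins belong to other complexes, which are described apart. A gene was read from the probe that the scanner software called well above background on most arrays, and among ties from the brightest.

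The study compared 3 conditions, each on a single array: spleen cells cultured with PBS as the control, with MRL/MpJ urine, or with urine from the MRL/MpJ-Faslpr/lpr strain, called lpr urine here. That strain carries a defective Fas gene and develops lupus-like disease. All cells came from male MRL/MpJ mice aged 6 months, so every array holds cells with intact Fas and only the urine donors differ at that gene. Contact lasted 3 h, and the labels do not settle whether the cells came from 1 spleen or several. Urine came from males aged 6 months, was pooled from 6 donors per strain and passed through a 0.22 µm filter. Because there were no replicate arrays, no test, standard error or p-value was possible, and each difference describes these arrays and cultures only.

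TFIID, built from the TATA-binding protein TBP and its associated factors (TAFs), recognises the core promoter and is joined by TFIIA and TFIIB. TFIIB and TFIIF bring Pol II in, TFIIE recruits TFIIH, and TFIIH opens the DNA and phosphorylates the tail of the largest Pol II subunit. Mediator links sequence-specific activators to this assembly through its head, middle and tail, and a separable kinase module can keep it from Pol II.

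Levels are processed signals divided by the 75th percentile of the same array, and differences are log2 ratios of those levels. Before that scaling the urine arrays were dimmer: the 75th percentile was 157.5 intensity units with PBS, 86.6 with MRL/MpJ and 75.7 with lpr urine. The 8 E1A spike-ins, synthetic RNAs added to each sample, shifted by only 0.05 and -0.06 log2 units against PBS. Scaling to them would move the median difference of all genes to -0.78 with MRL/MpJ and -0.85 with lpr urine. It would put 73 of 78 (93.6%) and 72 of 77 (93.5%) members below 0, beside 81.0% and 81.5% of all genes. Differences are therefore given relative to the array's 75th percentile or to the median of all genes. Repeated spots of 1 probe would give a log2 difference an SD of 0.05 at log2 signals above 8 and 0.25 below 5, which leaves out all variation between cultures and arrays.

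Of the 80 members, 77 were measured, that is well above background, on all arrays. Med22 was measured with PBS and MRL/MpJ urine, Med12l with PBS alone, and Gtf2a1l on no array. No member's probe was saturated.

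With MRL/MpJ urine the members lay lower against PBS than most genes did. Their median difference was -0.36, against 0.13 over all 19639 genes measured on both arrays, and 60 of 78 members lay below the all-gene median. At least 2-fold lower were 11 members (14.1%), beside 11.1% of all genes. At least 2-fold higher were 4 members (5.13%), beside 16.9% of all genes. Scaling to the spike-ins turned these counts to 51 lower (65.4%) and 1 higher (1.28%), beside 41% and 5.57% of all genes. Array-median scaling turned them to 25 lower (32.1%) and 2 higher (2.56%), beside 21% and 10.6%. Members thus had a larger share lower and a smaller share higher than all genes under each of these scalings, but which gap was wider turned with the scaling. Much of the array carries transcripts other than RefSeq mRNAs, and with both sides limited to RefSeq mRNA probes the difference narrowed: 14.5% of 76 members against 12.6% of genes were lower, 3.95% against 12.8% were higher, and the median of the members lay 0.31 below that of all genes in place of 0.49.

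With lpr urine, on a separate culture set against the same PBS array, the median of 77 members was -0.42, against 0.15 over 19368 genes. At least 2-fold lower were 14 members (18.2%), beside 12% of all genes. At least 2-fold higher were 5 (6.49%), beside 18.5% of all genes. The spike-in counts were 53 and 1 (44.3% and 5.54% of all genes), and those by array median 27 and 4 (22.1% and 11.1%). On RefSeq mRNA probes, 18.7% of 75 members against 13.9% of genes were lower and 5.33% against 13.8% higher. Both comparisons share the PBS array, so a deviation of that array would appear in both, and each gene's values are given side by side below, MRL/MpJ urine first. Gtf2e2, Med19, Polr2j and Taf1d were past 2-fold with lpr urine but not with MRL/MpJ urine; whether these differ between the urines was not tested.

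**Figure D1:**
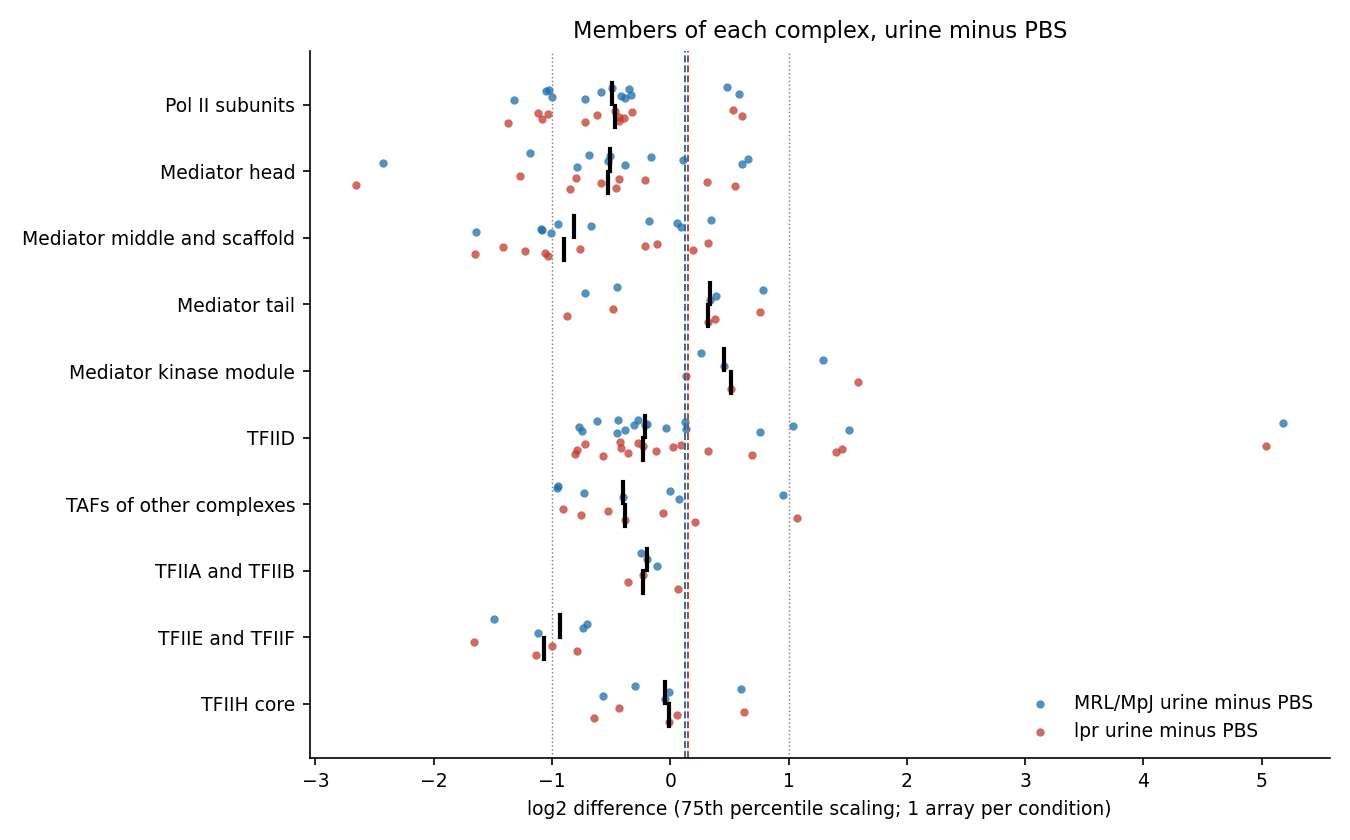
Log2 difference from PBS (75th percentile scaling) of each member measured on both arrays, by complex, for MRL/MpJ urine (blue) and lpr urine (red); black bars are medians, dashed lines the median of all genes (0.13 and 0.15) and dotted lines 2-fold. The medians of Mediator's middle and of TFIIE and TFIIF lie furthest left, those of its tail and kinase module right of 0, and Taf13 lies apart above 5.

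Pol II subunits were mostly lower. Of 13 members, 11 lay below 0 with either urine, beside 44.7% and 44.4% of all genes. The medians of the 13 were -0.49 and -0.47. At least 2-fold lower were 3 with MRL/MpJ and 4 with lpr urine, beside 11.1% and 12% of all genes. Spike-in scaling turned these counts to 11 with either urine, beside 41% and 44.3% of all genes. The members above 0 with 75th percentile scaling were Polr2a and Polr2g. Polr2a, which encodes the largest subunit with the catalytic centre and the phosphorylated tail, read 19.3 times the array's 75th percentile with PBS, 26.9 with MRL/MpJ and 27.8 with lpr urine. Polr2g, which forms the stalk, read 15.3, 22.9 and 23.3 times. Both were higher on each urine array, by 0.48 and 0.53 for Polr2a and by 0.58 and 0.60 for Polr2g, and a second Polr2a probe lay at 0.64 and 0.80. With spike-in scaling these directions turned, to -0.43 and -0.47 for Polr2a and to -0.33 and -0.39 for Polr2g.

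Polr2m encodes Gdown1, a Pol II-associated protein that interferes with initiation. It read 26.8 times the 75th percentile with PBS, 10.8 with MRL/MpJ and 10.4 with lpr urine (chr9:71326383-71326442, mm9). Its urine arrays were alike and both lay below PBS, by log2 differences of -1.32 and -1.37, the lowest of the Pol II genes. Polr2d, the partner of Polr2g in the stalk, read 1.43, 0.705 and 0.661 times, or -1.02 and -1.11. The stalk subunits therefore stood on opposite sides of PBS with 75th percentile scaling, whereas spike-in scaling put Polr2d at -1.93 and -2.11 and so both below PBS.

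Polr2e, a small subunit shared by RNA polymerases I, II and III, read 37.1 times the 75th percentile with PBS, 17.9 with MRL/MpJ and 18.1 with lpr urine. Its differences were -1.05 and -1.03, and those of its second probe -0.86 and -0.87, with PBS the high array on both. The other shared subunits were lower by less than 2-fold: Polr2f at -0.58 and -0.62, Polr2h at -0.33 and -0.43, Polr2k at -0.39 and -0.43, and Polr2l at -0.72 and -0.72. Polr2h and Polr2l each also had a probe above 0. Polr2j, which pairs with Polr2c in the assembly platform, read 9.77, 4.89 and 4.61 times, just short of 2-fold with MRL/MpJ urine (-0.998) and past it with lpr urine (-1.08). Polr2b, the second-largest subunit, lay at -0.49 and -0.47, Polr2c at -0.35 and -0.32, and Polr2i at -0.42 and -0.39. The 4 measured Polr2i probes ran from -0.42 to 0.01 and from -0.39 to 0.43.

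Mediator divided by module. Its head, which contacts Pol II, had a median of -0.51 and -0.52, with 2 members at least 2-fold lower with either urine. The middle with the Med14 scaffold had the lowest median of the Mediator modules, -0.81 and -0.90, with 4 and 5 of 10 members at least 2-fold lower. Beside these counts, 11.1% and 12% of all genes were lower. Spike-in scaling turned the counts to 8 and 8 in the head and 7 and 8 in the middle, beside 41% and 44.3% of all genes. Tail and kinase module had medians above that of all genes: the tail by 0.21 and 0.16 over 5 members, and Med12, Med13 and Med13l of the kinase module by 0.33 and 0.37. As distances from the all-gene median these values are the same with spike-in or array-median scaling. On RefSeq mRNA probes, however, the median of 4 tail members lay at -0.01 and -0.03 relative to that of all genes, so the direction turned. With the kinases and cyclin of the module added, which the symbol rule leaves out, the median of 6 kinase module genes was -0.05 and -0.06, which lay below that of all genes (-0.18 and -0.21 relative to it).

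Among head subunits, Med29 was the lowest of all members. Its 1 probe (chr7:29171753-29171812, mm9) read 3.62 times the 75th percentile with PBS, 0.673 with MRL/MpJ and 0.573 with lpr urine. It stood 5.37-fold and 6.31-fold lower than PBS, log2 differences of -2.43 and -2.66. Med11, a small head subunit, read 4.59, 2.02 and 1.91 times (-1.18 and -1.27), again with both urine arrays below PBS. Med30 was the highest head subunit measured on all arrays, at 0.61 and 0.54. Med22 was dim, and with lpr urine its signal did not clear background. That signal was 1.08-fold lower than with PBS and 1.70-fold lower than with MRL/MpJ urine, and neither ratio is a strict bound.

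Middle subunits at least 2-fold lower with both urines were Med7, Med31, Med4 and Med9. Med7, which pairs with Med21 to form the hinge of the middle, read 2.36, 0.754 and 0.751 times the 75th percentile, or -1.65 and -1.65. A second Med7 probe read -1.39 and -1.38, but the third, 476 bases upstream in the same RefSeq mRNA, read 0.01 and 0.07. Med31 read 2.57, 1.20 and 1.10 times (-1.09 and -1.23). Med4 read 3.19, 1.50 and 1.53 times (-1.08 and -1.06), and Med9 read 2.46, 1.23 and 1.20 times (-1.01 and -1.03). In these genes the urine arrays lay close together and the PBS array lay above them. Med19 read 0.810 times with PBS, 0.419 with MRL/MpJ and 0.304 with lpr urine (-0.95 and -1.41), and its second probe -2.04 and -1.43. Med1, the subunit bound by nuclear receptors, was the highest of the group at 0.34 and 0.32.

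In the tail, where many activators dock, Med16 read 340.1, 586 and 574 times the 75th percentile and was the highest tail member at 0.78 and 0.75. Its second probe lay at 0.21 and -0.09, and spike-in scaling put the first at -0.12 and -0.24. Med24 (0.39 and 0.38) and Med25 (0.33 and 0.32) were also above 0, whereas Med15 (-0.45 and -0.49) and Med23 (-0.72 and -0.87) were below. No tail subunit differed by 2-fold with 75th percentile scaling. Spike-in scaling put 2 of 5 at least 2-fold lower with either urine, beside 41% and 44.3% of all genes.

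Med13, which tethers the kinase module to the rest of Mediator, was the only Mediator gene at least 2-fold higher. It read 0.862 times the 75th percentile with PBS, 2.12 with MRL/MpJ and 2.58 with lpr urine (chr11:86080801-86080860, mm9). Both urine arrays lay above PBS, by 1.30 and 1.58. A second probe of the gene read 0.68 and 1.04, and spike-in scaling left the first at 0.39 and 0.59. Its paralogue Med13l lay at 0.46 and 0.52, and Med12 at 0.26 and 0.14. Med12l was dim and did not clear background on the urine arrays. Its signals there were 1.28-fold and 1.10-fold lower than with PBS, which are not strict bounds. The other partners of the module were set on a separate list of enzymes. Among those, Ccnc, its cyclin, read 1.18, 0.322 and 0.340 times (-1.87 and -1.80), although the 4 measured Ccnc probes ranged from -1.87 to -0.22 and from -1.80 to 0.00. Cdk19, one of its kinases, lay at -1.07 and -1.11, with probes up to 0.28 and 0.16, and Cdk8, the other, at -0.36 and -0.25.

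**Figure D2:**
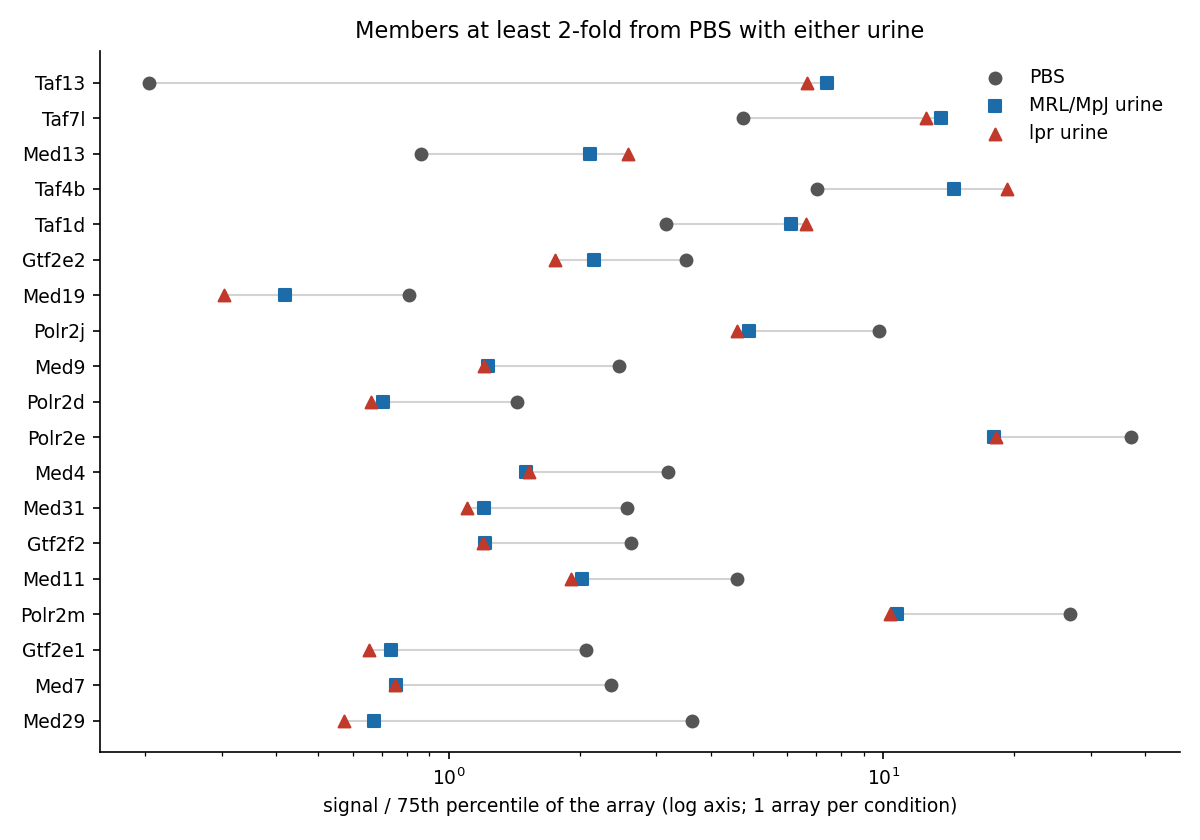
Signal divided by the array's 75th percentile (log axis) on the PBS, MRL/MpJ urine and lpr urine arrays for the members at least 2-fold from PBS with either urine and measured on all arrays, ordered by the MRL/MpJ difference. Med29 spans the widest drop, from 3.62 to 0.573, and the Taf13 probe the widest gain, from 0.204 to 7.42.

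TFIID members lay on both sides of PBS. Of 17 members, 3 were at least 2-fold higher with either urine and none was 2-fold lower, with medians of -0.22 and -0.23. Beside this, 16.9% and 18.5% of all genes were higher and 11.1% and 12% lower, so the higher share lay near that of all genes. On RefSeq mRNA probes 2 of 17 were higher with either urine, beside 12.8% and 13.8% of genes. Spike-in scaling turned the counts to 10 of 17 lower and 1 higher with either urine. Beside these, 41% and 44.3% of all genes were lower and 5.57% and 5.54% higher. Tbp, the DNA-binding core, read 1.51, 1.10 and 1.01 times the 75th percentile, at -0.45 and -0.57. The other Tbp probes read -0.61 and -0.74, and -0.40 and -0.82. Taf1, the largest TAF, lay at -0.44 and -0.42, Taf5 at -0.77 and -0.79 and Taf9 at -0.74 and -0.81. Of the complex, Taf5 lay lowest after MRL/MpJ urine and Taf9 after lpr urine. Taf12 (0.13 and 0.09) and Taf7 (0.13 and 0.32) lay near or above 0.

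The higher TFIID genes were Taf4b, Taf7l and Taf13. Taf4b, a variant of Taf4 first described in B cells and active in germ cells, read 7.05 times the 75th percentile with PBS, 14.5 with MRL/MpJ and 19.2 with lpr urine. Its single probe lay above PBS by 1.04 and 1.45, and it was further from PBS with lpr urine. Taf7l, a Taf7 relative known from testis and fat, read 4.76, 13.6 and 12.6 times on its measured probe (chrX:130994658-130994717, mm9), or 1.51 and 1.40; the gene's second probe was on no array above background. With spike-in scaling Taf4b stood at 0.13 and 0.45 and Taf7l at 0.60 and 0.40, all under 2-fold.

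Several members have a close relative in the list. On the probes used, the variant lay over 1 log2 unit higher than the canonical gene in 3 pairs, on the difference from PBS. Taf4b exceeded Taf4 (-0.31 and -0.42) by 1.35 and 1.87. Taf9b (0.76 and 0.69) exceeded Taf9 by 1.50 and 1.50, and Taf7l exceeded Taf7 by 1.38 and 1.08. These gaps do not depend on how the arrays are scaled to each other by a constant. The gap was smaller for Taf5l over Taf5 (0.37 and 0.40) and Taf6l over Taf6 (0.11 and 0.33), relatives that sit in SAGA. It ran the other way for Med13l, 0.84 and 1.07 lower than Med13 in difference. Taf9b was dim, at 0.199, 0.337 and 0.322 times the 75th percentile, and a second Taf7 probe read 1.14 and 0.88, nearer to Taf7l. Second probes of Taf4 (0.29 and 0.11) and Taf9 (-0.32 and -0.46) also lay nearer to the variant than the probes used.

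Among the Taf genes of other complexes, Taf1d, part of the Pol I factor SL1, read 3.17, 6.12 and 6.65 times the 75th percentile. Both urine arrays lay above PBS, by 0.95 and 1.07; its other probes read 0.45 and 0.66, and -0.06 and 0.28. The other SL1 subunits were Taf1a, dim at -0.95 and -0.53, Taf1b at 0.00 and -0.06, and Taf1c at -0.73 and -0.75. Taf15, an RNA-binding protein, read -0.95 and -0.91 on the probe used and -0.19 and -0.26 on another RefSeq probe.

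TFIIE and TFIIF, which join the assembly after TFIIB, had the lowest medians of the general factors, -0.93 and -1.07 over 4 members. All 4 lay below 0 with either urine, beside 44.7% and 44.4% of all genes. Gtf2e1, the large TFIIE subunit, read 2.07, 0.736 and 0.655 times the 75th percentile (chr16:37510094-37510153, mm9). It was 2.81-fold and 3.16-fold lower (-1.49 and -1.66), and its second probe, to an Ensembl transcript, read -1.57 and -1.31. Gtf2e2, the small subunit, read 3.51, 2.15 and 1.75 times, at -0.71 and -1.003. Gtf2f2, the small TFIIF subunit, read 2.63, 1.21 and 1.20 times (-1.12 and -1.13), and Gtf2f1 lay at -0.74 and -0.79. In all 4 genes both urine arrays were below PBS.

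TFIIA, TFIIB and the TFIIH core stayed within 2-fold on the probes used. Their medians were -0.20 and -0.23 over 3 measured TFIIA and TFIIB genes and -0.04 and -0.01 over 5 TFIIH genes. Gtf2h2 was the highest at 0.60 and 0.62, turning to -0.31 and -0.38 with spike-in scaling, and Gtf2h4 the lowest at -0.57 and -0.64. Gtf2a1 lay at -0.25 and -0.23; its relative Gtf2a1l was not well above background on any array and has no difference.

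Upstream sequence is shown for 3 genes of the differences above: Med29, the lowest member, and Gtf2e1 and Med13, a lower and a higher member whose measured probes all lay on the same side of PBS. Each run is the 250 bases before the RefSeq start on GRCm38.p6, written along the gene's strand, with capitals at any match to a motif searched on both strands. The motifs were the TATA box TATAAA, the NF-Y box CCAAT, the ETS core CCGGAAG, the heat shock pair GAANNTTC, the AP-1 site TGANTCA, the CREB site TGACGTCA and the E-box CACGTG. No match overlapped another in the runs shown. ATTGG in capitals is CCAAT on the other strand.
Med29 promoter, chr7:28392691-28392940, minus strand: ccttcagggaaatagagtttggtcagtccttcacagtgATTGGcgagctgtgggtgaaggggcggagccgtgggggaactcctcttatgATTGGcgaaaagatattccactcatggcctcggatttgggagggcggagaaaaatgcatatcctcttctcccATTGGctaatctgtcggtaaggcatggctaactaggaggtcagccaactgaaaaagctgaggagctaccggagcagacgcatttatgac
Gtf2e1 promoter, chr16:37539790-37540039, minus strand: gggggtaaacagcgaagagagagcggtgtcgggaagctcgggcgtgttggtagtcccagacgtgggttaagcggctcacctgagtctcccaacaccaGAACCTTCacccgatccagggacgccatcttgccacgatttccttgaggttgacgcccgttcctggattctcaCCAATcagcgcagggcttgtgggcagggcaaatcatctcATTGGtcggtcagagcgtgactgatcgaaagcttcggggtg
Med13 promoter, chr11:86357597-86357846, minus strand: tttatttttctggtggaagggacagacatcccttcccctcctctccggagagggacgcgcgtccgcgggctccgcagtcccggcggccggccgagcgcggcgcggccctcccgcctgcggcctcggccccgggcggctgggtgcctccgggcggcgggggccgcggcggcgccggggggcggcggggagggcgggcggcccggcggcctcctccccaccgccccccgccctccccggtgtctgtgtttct
Med29 holds 3 CCAAT matches. Gtf2e1 holds 2 CCAAT matches and 1 GAANNTTC match. Med13 holds none of the motifs and is 80.0% G and C, against 51.6% in Med29 and 58.4% in Gtf2e1.

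A promoter was listed for 69 members. Their median G and C content was 57.6%, close to the 58.8% of 11198 genes measured on all arrays, where all 27025 listed genes had 52%. CCGGAAG was in 15 of the 69 (21.7%), against 13.0% of measured genes. CACGTG was in 10 (14.5%) against 8.07%, and TATAAA in 12 (17.4%) against 7.75%. CCAAT (34.8% against 36.5%), GAANNTTC (7.25% against 5.23%), TGANTCA (4.35% against 4.63%) and TGACGTCA (4.35% against 2.62%) were in few members or in similar shares. These counts describe letters in a window, not sites in use. Among the 14 members lower with lpr urine, Med4, Med19 and Polr2j hold CCGGAAG, beside the 21.7% of all listed members. Polr2d and Gtf2e2 of those 14 had no listed promoter. Taf13, higher only on a probe to an Ensembl transcript, also holds it. Whether the motif goes with the direction of a difference was not tested.

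Probes of 1 gene did not always give 1 answer. Of 48 members with several measured probes, 8 (16.7%) had probes over 1 log2 unit apart after MRL/MpJ urine and 7 (14.6%) after lpr urine, below the 30.5% and 32.5% among all 6524 such genes. Over 3 units apart were Taf13, Gtf2b and Polr2l (6.25%, against 3.46% and 3.94% of all such genes). In each, 1 probe lay near or below 0 and another far above it.

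Taf13, which forms a histone-fold pair with Taf11, was called higher only through a probe to an Ensembl transcript. That probe (chr3:108386027-108386086, mm9) read 0.204 times the 75th percentile with PBS, 7.42 with MRL/MpJ and 6.68 with lpr urine, 36.4-fold and 32.8-fold higher (5.18 and 5.03). The RefSeq mRNA probe, 1314 bases upstream on the same strand, read 1.74, 1.54 and 1.58 times (-0.18 and -0.13). PBS was thus the lowest array on one Taf13 probe and the highest on the other. For Gtf2b, which positions Pol II at the start site, the RefSeq probe read 3.65, 3.37 and 3.81 times (-0.11 and 0.06). An Ensembl-transcript probe 15531 bases upstream read 0.194, 4.51 and 2.97 times (4.54 and 3.94). For Polr2l, the first RefSeq probe read 24.0, 14.6 and 14.6 times and the second, 1043 bases downstream, 0.483, 4.34 and 3.26 times (3.17 and 2.75).

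Stretches of 30 bases from the centre of these probes, or around a polyadenylation signal where there is one, show that they are distinct sequences. Capitals mark ATTAAA, a common variant of that signal.
Taf13 RefSeq probe: aacggagagttgATTAAAtctgtatgtggc
Taf13 Ensembl probe: tccgaaaagtgtATTAAAgaatttgtactg
Gtf2b RefSeq probe: caccccagtggacaaattaccccagctata
Gtf2b Ensembl probe: cagttttccatgtgacttagttgttggtag
Polr2l first RefSeq probe: ttaccctggaaggaactgtttagtaaagat
Polr2l second RefSeq probe: ctcttggattctgggATTAAAggtgtgtgt
ATTAAA or AATAAA was in 14.8% of the 169 member probes and 13.4% of all probes, and in Taf13 it is in both probes. The second Polr2l probe holds GGGATTAAAGG, a run that also belongs, on the other strand, to the consensus of mouse B1 repeats. It was searched for after the values were seen. On this strand 6 of 56599 probes hold it and 4 were measured, of which the Polr2l probe alone was at least 2-fold higher with either urine. Of 13 measured probes with the run on the opposite strand, 9 (69.2%) and 8 (61.5%) were at least 2-fold higher, against 15.7% and 16.9% of all measured probes. Whether repeat sequence bears on the second Polr2l value was not tested.

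Smaller splits touched other members. Polr2c read 0.68 and 1.00 on an Ensembl-transcript probe 6799 bases downstream, against -0.35 and -0.32 on the probe used. Med20 read 0.79 and 1.21 on a second RefSeq transcript's probe, against -0.16 and -0.21. Polr2h probes ran from -0.50 to 0.48 and from -0.43 to 0.51. Of the 11 members lower with MRL/MpJ urine, 8 had 1 measured probe, 2 had all probes on the same side and Med7 had probes on both; of the 4 higher, Taf4b and Taf7l had 1 measured probe, Med13 agreed in sign and Taf13 did not.

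**Figure D3:**
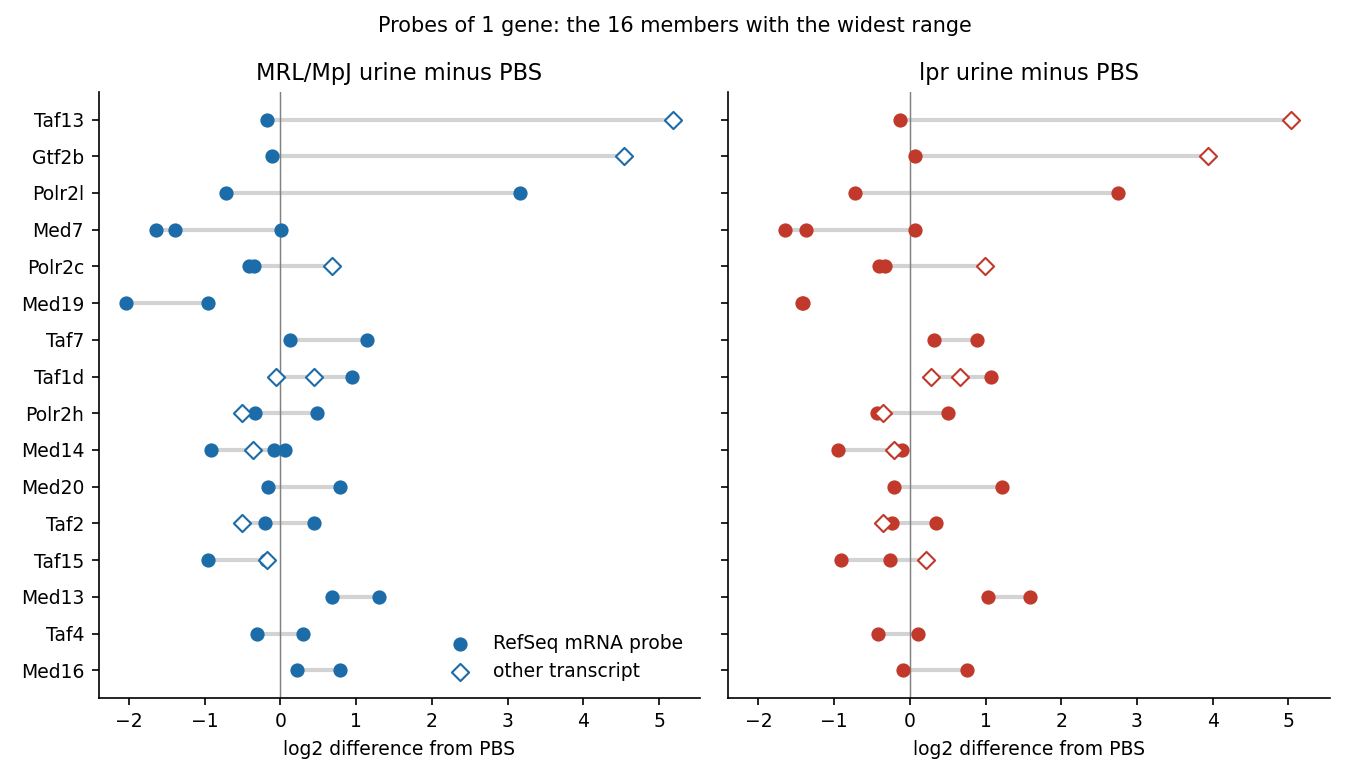
Log2 difference from PBS of each measured probe for the 16 members whose probes span the widest range, with MRL/MpJ urine (left) and lpr urine (right); filled circles are RefSeq mRNA probes, open diamonds probes to other transcripts, and grey bars the range. Taf13, Gtf2b and Polr2l span over 3 log2 units, whereas both probes of Med13 lie right of 0 and both of Med19 left of it.

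Set against each other, the urine arrays were close for these genes, as they were for most genes. No member differed by 2-fold between lpr and MRL/MpJ urine in either direction, where 0.34% of all 20012 genes were higher and 0.06% lower. All 77 measured members lay within 0.5 log2 units, with a median of -0.03 and 48 (62.3%) below 0. Over all genes the median was 0.005, the quartiles were -0.10 and 0.12, and 48.6% lay below 0. Taf1a (0.43, dim) and Taf4b (0.41) were furthest up, and Med19 (-0.46), Gtf2e2 (-0.30) and Med14 (-0.27) furthest down. Med13 lay 0.29 higher. No replicate shows how far apart repeat cultures with the same urine would lie.

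The factors that act on Pol II once it has assembled were read as a list of their own. Of 32 measured pausing and elongation genes, 4 were at least 2-fold higher and 3 lower with MRL/MpJ urine, and 6 and 4 with lpr urine. Of all genes, 16.9% and 11.1%, and 18.5% and 12%, were as far from PBS, so the shares of this list lay near or under those of all genes. Hexim1, which holds the elongation kinase P-TEFb inactive, read 0.986 times the 75th percentile with PBS, 112 with MRL/MpJ and 93.6 with lpr urine (6.83 and 6.57). Its relative Hexim2 lay at 2.30 and 1.9995 on the probe used, with its other measured probe at 1.19 and 0.43. Ccnt2, a cyclin of P-TEFb, read 7.72, 1.26 and 1.20 times (-2.61 and -2.69), with its 5 measured probes from -2.61 to -0.55 and from -2.69 to -0.63. Nelfa, a subunit of the pausing factor NELF, lay at -1.17 and -1.57. Ell3 (1.71 and 1.61) and Ell (-1.15 and -1.10), of the same elongation factor family, stood on opposite sides. Ctr9 of the PAF complex lay at 1.52 and 1.46 on the probe used, with another at -0.53 and -0.88.

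Of 14 genes for Pol II assembly and tail phosphatases, 5 lay 2-fold or more below PBS and 1 above it with either urine, with medians of -0.76 and -0.75. Of all genes, 11.1% and 12% lay as far below and 16.9% and 18.5% as far above. Rpap3, a cofactor of Pol II assembly, lay at -1.17 and -1.26, Gpn2, an assembly GTPase, at -1.09 and -1.12, and Ctdp1, the tail phosphatase FCP1, at -1.02 and -1.22; Rprd1a, a tail-binding protein, was the higher one (1.60 and 1.46). Of 8 kinases and enzymes of Mediator and TFIIH, 2 and 3 were lower and none higher, beside the same shares of all genes, with Cdk7 of TFIIH past 2-fold with lpr urine only (-0.65 and -1.01). On RefSeq mRNA probes 1 and 3 of the 8 were lower. Of 15 SAGA and ATAC genes, Supt7l alone passed 2-fold (2.18 and 1.98), and none of 4 TBP relatives and regulators did.

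The other nuclear polymerases also lay low. The median of 8 Pol I genes was -0.79 and -0.82, with 2 at least 2-fold lower: Polr1b, the second-largest subunit (-1.90 and -2.17), and Cd3eap (-1.84 and -2.19), a Pol I-associated factor. The median of 10 Pol III genes was -0.67 and -0.53, with 3 lower, of which Polr3d lay at -1.47 and -1.45. On RefSeq mRNA probes it was -0.40 and -0.38 over 9 genes, with 1 lower. Of all genes 11.1% and 12% were lower. No gene of either list was 2-fold higher. These medians lay 0.92 and 0.79 below that of all genes with MRL/MpJ urine, against 0.62 for Pol II. On RefSeq mRNA probes these distances were 0.74 for Pol I, 0.35 for Pol III and 0.44 for Pol II, so the order of Pol III and Pol II turned. Whether the polymerases differ from each other could not be tested.

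Spleen cell markers were measured as the label implies: all 5 genes each of B cells, T cells, monocytes and macrophages, neutrophils and erythroid cells. On the PBS, MRL/MpJ and lpr arrays, summed signals of the B cell list were 194.9, 304.4 and 289.9 times the 75th percentile, and of the neutrophil list 256.0, 437.1 and 458.7 times. The sums were 129.2, 136.8 and 145.5 for T cells, 55.6, 93.5 and 82.5 for monocytes and macrophages, and 160.7, 195.0 and 211.9 for erythroid cells. Marker medians against PBS thus lay above those of the members, at 0.85 and 0.84 for B cells, 0.14 and 0.22 for T cells, 0.82 and 0.88 for monocytes and macrophages, and 0.73 and 0.84 for neutrophils. The T cell medians lay near those of all genes, 0.13 and 0.15. Of the 5 B cell markers, Cd79b alone lay below 0 with 75th percentile scaling, at -0.23 and -0.34. With spike-in scaling all these list medians lay below 0, though above the members' -1.27 and -1.42. They were -0.06 and -0.15 for B cells, -0.77 and -0.77 for T cells, and -0.09 and -0.12 for monocytes and macrophages. Neutrophils lay at -0.18 and -0.16, and erythroid cells at -0.36 and -0.28. In such mixed samples, fewer cells of a type and less RNA per cell cannot be told apart, and the part of cell makeup in the members' differences was not tested. Of 6 urinary tract genes, Upk1a alone was measured, and Krt5, Umod, Upk1b, Upk2 and Upk3a were on no array above background.

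**Figure D4:**
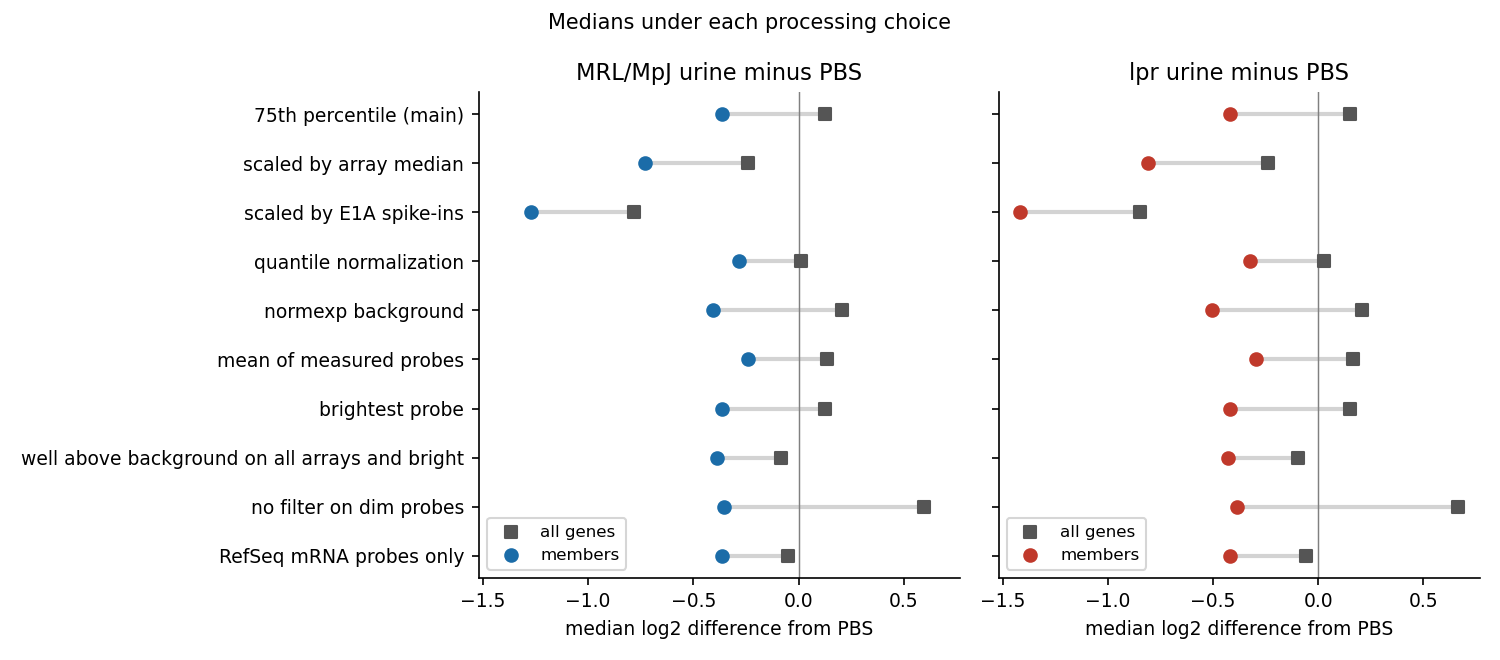
Median log2 difference from PBS of the members (circles) and of all genes (squares) under each processing choice, for MRL/MpJ urine (left) and lpr urine (right). The members lie left of all genes in every line; scaling to the spike-ins moves both left, to -1.27 and -0.78 with MRL/MpJ urine, and limiting the probes to RefSeq mRNAs narrows the gap.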

How the data were processed

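Agilent Feature Extraction 12.0.3.1 read the single-colour arrays (design 074809, protocol GE1_1200_Jun14), per the file headers. Its processed signal, as deposited, is an intensity with background subtracted within each array and with no normalisation between arrays. Probe positions are those of the files (mm9, 1-based); promoters are RefSeq's on GRCm38.p6, and no coordinates were converted.

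Spots flagged as outliers were left out, repeated spots were averaged and 6 probes without a usable spot were dropped, which left 56599. The level is the log2 of that signal after division by the 75th percentile of its array. A gene entered a comparison where its probe cleared background on both, and was called at 2-fold. A gene dim on 1 array was given a ratio against the higher of its own signal and the lowest signal well above background there. For Med22 and Med12l this was their own signal, so the ratio is not a strict bound. Calculations used Python 3.11.15 with pandas 2.3.3 and numpy 2.4.6, and limma 3.58.1 in R 4.3.3 for normexp (offset 50); calling was tested on simulated data.

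Named members are all Pol II subunits and Tbp, members at least 2-fold apart, the highest and lowest of each complex, paralogue pairs and members with probes over 1 log2 unit apart; of other lists, up to 3 genes each way past 2-fold. Members, lists and named genes were chosen with earlier results of these data known. Other genes named, such as Med24, Med25, Taf1b, Taf1c, Taf12 and Cdk8, fill out their complexes and were chosen after their values were seen, as was the kinase module median with its kinases and cyclin. Alternatives were other scalings (array median, E1A spike-ins, quantile), normexp background, the mean of a gene's probes or its brightest probe, a stricter filter or none, and RefSeq mRNA probes only, the last added after seeing the data. Protein sequences were not used here.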

Additional observations from a re-analysis of the deposited data

Results flagged for a closer look

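With 75th percentile scaling the signs of the differences from PBS were opposite for the 2 urines in 5 members, so that the single array of one urine lay above PBS and that of the other below. The difference between lpr and MRL/MpJ urine was 0.176 log2 units for Gtf2b, 0.0725 for Gtf2h3, -0.273 for Med14, -0.0607 for Taf1b and 0.235 for Taf3. None of these differences was tested, since each condition has 1 array, and all are under 2-fold. With spike-in scaling all 5 lay below PBS with both urines, from -0.85 to -1.12 with MRL/MpJ and from -0.93 to -1.21 with lpr urine. In Gtf2h3, Med14, Taf1b and Taf3, at least 1 of the differences from PBS was within the SD of repeated spots, 0.12.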

How the results depend on the processing

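No paired analysis was possible because there was 1 array per condition, and no replicate could be left out. The members' median lay below that of all genes under every alternative run, in both comparisons with PBS. With MRL/MpJ urine it lay at -0.49 relative to all genes, and at -0.30 with quantile normalisation, -0.62 with normexp, -0.38 with the mean of probes, -0.30 with bright probes only, -0.95 with no filter and -0.31 with RefSeq mRNA probes. With lpr urine the respective values were -0.57, and then -0.35, -0.71, -0.46, -0.33, -1.05 and -0.36. Between the urines it was -0.03, and -0.12 with no filter. Counts moved with the scaling. Members 2-fold higher with MRL/MpJ urine numbered 4, and 2 with array-median scaling, 1 with spike-ins and 2 with normexp; members lower numbered 11, and 25, 51 and 7. With lpr urine, 5 were higher, and 1 with spike-ins. Lower with lpr urine were 14, and 27 with array-median scaling and 53 with spike-ins. The larger share of lower members did not hold in every setting. With quantile normalisation, 13% of members and 13% of all genes were lower with lpr urine, and 14.1% and 12.4% with MRL/MpJ urine. With normexp, 8.97% of members and 8.23% of all genes were lower with MRL/MpJ urine, and 15.6% and 9.66% with lpr urine. Over all genes spike-in scaling called 5.57% higher and 41% lower with MRL/MpJ urine, and 5.54% and 44.3% with lpr urine, so the share of higher among called genes went from 60.3% to 11.95% with MRL/MpJ urine; array-median scaling gave 33.7%. Among called members that share went from 26.7% to 1.92%, and to 7.41% with array-median scaling. The alternative limited to RefSeq mRNA probes, chosen after seeing the data, reversed Taf13, to -0.18 and -0.13. Dim members (Taf1a, Taf9b, Med22, Med12l, Gtf2a1l) lie where the repeated spots of 1 probe spread most.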
